A study of Mus musculus with 17 samples.

Results

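Delta cells are the somatostatin-producing endocrine cells of the pancreatic islet. They were taken here as cells with at least 3000 Sst per 100000 UMIs in the deposited normalized table, at least 3 times as much Sst as each of Ins2, Gcg and Ppy, and less than 1500 Prss2, a trypsinogen made by acinar cells. The rule found 128 delta cells among 2999 cells, in 16 of 17 libraries. The same rule with Gcg, Ins2 or Ppy in place of Sst gave 492 alpha, 910 beta and 154 pancreatic polypeptide (PP) cells, and the other 1315 cells were given no type. The rule used only these 5 genes. Their levels are therefore described with no test, and although they stay in the fits and in the counts over all genes, none of their calls is read as a result.

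The study followed islet endocrine cells after beta-cell loss and set them beside the postnatal pancreas. All mice carried Ngn3-Cre, which is active in the endocrine progenitors of the pancreas, together with a Rosa-RFP reporter, and RFP-positive cells were sorted and picked by hand. Male mice aged 2 months were given 1 intraperitoneal dose of 200 mg/kg streptozotocin (STZ), a toxin taken up by beta cells. Of these, 8 libraries came from mice with insulin implants, taken at STZ_D6, STZ_D12 (2 libraries), STZ_D30, STZ_D42, STZ_M2, STZ_M5 and STZ_M9 (D for days and M for months). The series text counts the first of these as day 1, against D6 in the labels, and the label is used here. At STZ_M9 the implants had not been kept up over the last 2 months. A further 2 libraries, STZ_M2_NoIns, came from mice without implants. Untreated pups at P3, P12 (2 libraries) and P21 gave 4 libraries, and age-matched adult controls injected with citrate buffer gave 3. The labels do not say that libraries came from separate mice, so p-values measure only the spread between these libraries.

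Somatostatin is released close to its target cells and holds back the secretion of insulin, glucagon and pancreatic polypeptide. Delta cells arise from the same Ngn3-positive progenitors as the other islet cells, and in mice the homeobox factor Hhex keeps them in the delta state. They are known to answer ghrelin, to receive urocortin 3 from beta cells, and to share with beta cells the machinery that couples glucose to electrical activity.

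Delta cells numbered 99 in the STZ libraries with implants: 5 at STZ_D6, 26 and 7 at STZ_D12, 11 at STZ_D30, 20 at STZ_D42, 9 at STZ_M2, 7 at STZ_M5 and 14 at STZ_M9. The STZ_M2_NoIns libraries held 4 and 1. The postnatal libraries held 15, with 4 at P3, 3 and 1 at P12 and 7 at P21. The controls held 9, with 2, 7 and 0 in replicates 1, 2 and 3. Median depth was 31998.5 UMIs per delta cell (10466 to 115918), against 41404 in alpha, 60557 in beta and 38170.5 in PP cells. To compare types, UMIs were summed over the cells of a type in a library wherever it held at least 5, which gave 10 delta sums of 149682 to 771683 UMIs. Levels are given as UMIs per 1000000 UMIs of such a sum (CPM), and differences as log2 fold changes ± SE from edgeR's quasi-likelihood test with Benjamini-Hochberg adjustment over all genes tested. The 10 delta sums were 8 STZ libraries with implants, P21 and Control replicate 2, so type differences rest mostly on STZ mice.

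The 250 bases upstream of the RefSeq start of Sst and of the transcription factor Hhex and the retinol carrier Rbp4 are shown because these genes mark the cells (RefSeq, GRCm38.p6, 5′ to 3′ on the gene's strand). Capitals mark TGACGTCA, the palindromic cAMP response element through which somatostatin is induced, and TAAT, the core of many homeobox factor sites.
Sst, chr16:23890845-23891094, minus strand: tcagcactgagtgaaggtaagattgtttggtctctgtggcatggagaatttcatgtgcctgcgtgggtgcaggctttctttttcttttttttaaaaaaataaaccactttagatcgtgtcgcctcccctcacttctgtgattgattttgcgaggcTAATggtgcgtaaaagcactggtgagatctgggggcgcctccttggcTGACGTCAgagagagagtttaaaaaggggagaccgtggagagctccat
Hhex, chr19:37434591-37434840, plus strand: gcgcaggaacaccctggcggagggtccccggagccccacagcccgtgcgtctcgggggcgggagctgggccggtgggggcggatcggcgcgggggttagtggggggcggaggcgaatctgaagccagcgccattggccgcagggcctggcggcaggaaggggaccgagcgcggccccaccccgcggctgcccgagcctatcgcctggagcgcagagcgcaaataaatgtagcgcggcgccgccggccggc
Rbp4, chr19:38124812-38125061, minus strand: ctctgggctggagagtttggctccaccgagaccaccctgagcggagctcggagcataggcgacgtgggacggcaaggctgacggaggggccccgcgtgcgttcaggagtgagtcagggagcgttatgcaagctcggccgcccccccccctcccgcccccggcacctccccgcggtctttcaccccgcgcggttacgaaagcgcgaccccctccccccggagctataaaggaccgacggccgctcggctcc
In the Sst window TGACGTCA lay 48 to 41 bases upstream of the start and TAAT 95 to 92 bases upstream. Neither string was found on either strand of the Hhex window or of the Rbp4 window shown. The table lists 2 starts for Rbp4, and the window of the other, not shown, holds TAAT but not TGACGTCA. Over all promoters of this length, searched on both strands, 1.55% held TGACGTCA (508 of 32851) and 54.9% held TAAT. The match is a description of these letters, and promoters of Arg1, Ly6h and Fam159b are not shown.

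Within the 128 cells, Sst ran from 4690 to 36440 per 100000 UMIs (median 15610). By library, the median was 11364 to 21368 in the STZ libraries with implants, 14787 and 12383 in the STZ_M2_NoIns libraries, 9096 to 16708 in the postnatal libraries and 22702 and 15018 in Control replicates 1 and 2. The groups overlap. The median cell had 5.41 times as much Sst as its next hormone gene of the rule, which was Ppy in 90 cells, Ins2 in 31 and Gcg in 7. Ppy, which encodes pancreatic polypeptide, had a median of 2023 per 100000 and reached 1000 in 91 cells, Ins2 had a median of 563 and reached 1000 in 45, and Gcg had a median of 171 and reached 1000 in 4. Delta cells so defined thus differed widely among themselves in a second hormone transcript, within the limit that the rule sets on it. Part of this spread lay between libraries. Ppy differed by library: its median was 144 per 100000 at P3 and 299 and 34.7 at P12, but 2965 at P21, against 2365 and 2122 in the controls. Ins2 did so too. Its median was 33.9 per 100000 at STZ_M2 and 76.3 at STZ_D42, but 3127 at STZ_M5, against 3630 and 2192 in Control replicates 1 and 2.

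Of the hormones outside the rule, peptide YY (Pyy) reached 1000 per 100000 in all 128 cells (median 5305) and islet amyloid polypeptide (Iapp) in 126 (median 3631). The second insulin gene, Ins1, reached it in 18 (median 91.0). The median for ghrelin (Ghrl) was 0, although summed delta UMIs gave 110 CPM at P3, 629 CPM in the single delta cell of P12 replicate 2 and 23.2 CPM at P21, against 6.68 CPM or less in adult libraries.

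**Figure D1:**
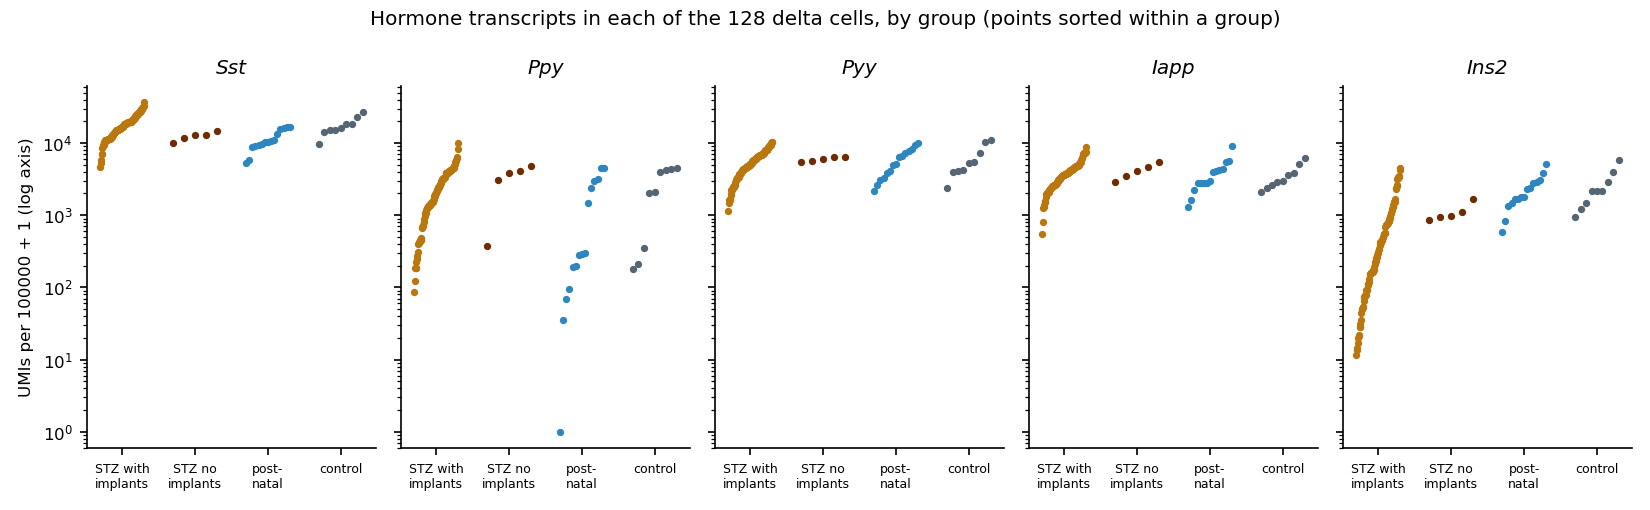
Sst, Ppy, Pyy, Iapp and Ins2 in each delta cell by group, in UMIs per 100000 plus 1 on a log axis. Each point is a cell; Sst and Pyy are high in every cell, while Ppy and Ins2 spread from near 0 to above 1000.

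The edge of the rule fell inside a continuous range. The 5 members with the lowest ratio of Sst to the next hormone had 3.02 to 3.18 times as much. Outside it, 119 more cells had Sst as their leading hormone at 1.02 to 2.95 times the next, which was Ppy in 105. The highest 5 of them had 2.87 to 2.95. These 119 cells carried the marker transcripts about as often as the members: Hhex was seen in 94.5% of members and 93.3% of these cells, against 12.3% of PP cells, and Ly6h in 81.3% of members and 77.3% of these cells, against 1.3% of PP cells. A further 15 cells met the hormone terms but had 1500 Prss2 or more, and 0 cells were kept out by the Sst minimum alone.

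The label held against the markers that the rule did not use. Hhex, Rbp4, Fam159b, Arg1 and Ly6h were all higher in delta cells than in alpha, beta and PP cells in each of the 9 libraries that held a sum of all 4 types. A total of 13479 genes were tested, of which 13.9% were called at an adjusted p under 0.05 against the mean of the other 3 types, 6.08% as higher and 7.77% as lower. All 5 markers were called higher there and against each type alone.

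Hhex lay at 325 to 560 CPM in the 10 delta sums (median 405), against a median of 1.89 CPM in 16 alpha sums (0 to 42.9), 2.38 CPM in 16 beta sums (0 to 13.3) and 6.03 CPM in 11 PP sums (0 to 52.2). The lowest delta sum stood above the highest sum of any other type, and the log2 difference from the mean of the others was 6.12 ± 0.30 (adjusted p = 2.36e-26). The gene lies on chromosome 19, from 37434810 to 37440731 on the plus strand of GRCm38. Rbp4, also on chromosome 19, had 3548 to 8218 CPM in delta cells (median 6569), against medians of 1208 in alpha, 472 in beta and 476 in PP cells, a log2 difference of 3.03 ± 0.18.

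Fam159b, which encodes a Shisa-like membrane protein (Shisal2b in GENCODE), had 602 to 1236 CPM in delta cells (median 975), against medians of 3.89 in alpha, 63.4 in beta and 8.93 in PP cells. Its log2 difference was 5.62 ± 0.20 from the mean and 3.42 from beta cells alone. Arg1, the arginase that splits arginine into ornithine and urea, had 400 to 870 CPM (median 635), against 101 in alpha, 14.3 in beta and 11 in PP cells, a difference of 4.21 ± 0.27. Ly6h, a GPI-anchored protein of the Ly6 family, had 94.4 to 499 CPM (median 210) and medians of 0 in the other 3 types. It was counted 1204 times in delta cells, against 7 in alpha, 34 in beta and 2 in PP cells, whose UMI totals were larger.

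Cell by cell, after thinning to 20000 UMIs (107 delta, 468 alpha, 894 beta and 141 PP cells kept, and 21, 24, 16 and 13 shallower ones left out), Hhex was found in 94.4% of delta, 5.98% of alpha, 5.15% of beta and 8.51% of PP cells. Unthinned, these shares were 94.5%, 9.76%, 13.2% and 12.3%. Ly6h was found in 81.3% of delta cells, against 0.427%, 1.12% and 1.42% of alpha, beta and PP cells (81.3%, 1.42%, 3.08% and 1.3% unthinned). Rbp4 was not a marker by presence, since it was found in 99.8% of alpha cells as well (100% unthinned). It separated the cells by level.

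**Figure D2:**
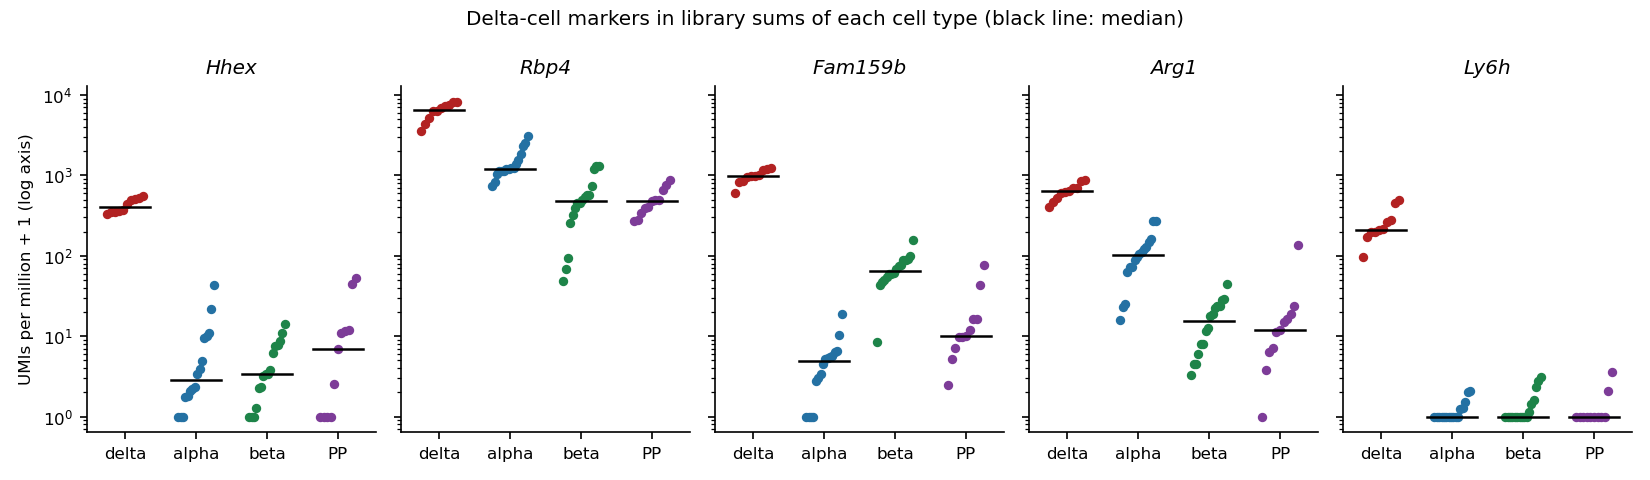
Hhex, Rbp4, Fam159b, Arg1 and Ly6h in library sums of delta, alpha, beta and PP cells of at least 5 cells, in CPM plus 1 on a log axis. Each point is a library and each black line a median; the delta sums stand above all others for every marker.

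The markers were also called within each part of the study, on few cells outside the STZ libraries. With STZ libraries, postnatal libraries or controls fitted alone, every marker was called higher against the mean of the other types, with Hhex at 6.0, 6.40 and 10.55, Rbp4 at 2.91, 3.63 and 3.81, and Arg1 at 3.95, 5.47 and 5.20 on the log2 scale. The postnatal values rest on the 7 delta cells of P21 and the control values on 7 delta cells of 1 library, and those for Hhex also on the small count added to near-empty sums. Over all alternatives the 5 markers gave 616 values, of which 615 were called in the same direction. The exception was Ly6h against PP cells in the control libraries alone (adjusted p = 0.0615). In sums too small for the test, Hhex had 1011 CPM at P3, 813 and 233 CPM at P12, 517 and 33.0 CPM in the STZ_M2_NoIns libraries and 409 CPM in Control replicate 1. The lowest of these came from a single cell. Ly6h was seen in 1 of 4 cells at P3 and in 6 of 7 at P21, while Hhex was seen in all of them.

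Against the mean of the other types, 820 genes were called higher and 1047 lower, and with DESeq2 1208 and 811. The median log2 difference over all genes was -0.11 in edgeR and 0.09 in DESeq2, so differences of about that size depend on the method. The methods differ in scaling, in the estimate of the spread and in the test, and these were not tested apart. Among genes of at least 50 CPM that ran the same way in 9 of 9 libraries, those with the largest positive differences were Ly6h, Hhex, Fam159b and the 7 genes given next. Ptprz1, a receptor tyrosine phosphatase, had 34.5 to 208 CPM in delta sums (median 90.9) and was counted 432 times there, against 3, 73 and 1 times in alpha, beta and PP cells. Mest, an imprinted gene of the hydrolase family, had 26.8 to 224 CPM (median 71.6; 428 UMIs against 65, 45 and 2).

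Spock3, a testican proteoglycan, had 46.8 to 155 CPM (median 69.5; 361 UMIs against 17, 59 and 3). Mef2c, a transcription factor of muscle and neurons, had 48.2 to 183 CPM (median 140; 541 UMIs against 9, 229 and 16). Gap43, a growth cone protein, had 33.5 to 367 CPM (median 151; 673 UMIs against 28, 50 and 82). Each of these delta totals came from the smallest of the 4 UMI totals, 4681388 against 23881411 in alpha, 60370640 in beta and 6570021 in PP cells. Ppp1r17, a phosphatase inhibitor, had 18.3 to 327 CPM with its highest value at STZ_D6, and Gpr116, an adhesion receptor, had 24.7 to 147 CPM. The fitted folds of such genes depend on the small count added to near-empty sums, so levels and totals are given.

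The 10 genes with the largest negative differences were chosen, like those above, to have a delta mean outside those of all 3 other types. Gpr119, a lipid receptor that raises cAMP, was counted 5 times in delta cells, against 2737 times in alpha, 1646 in beta and 312 in PP cells, with medians of 0 CPM in delta and 87.0, 24.3 and 50.5 CPM in the others. After thinning, it was found in 0.935% of delta, 59.2% of alpha, 26.0% of beta and 38.3% of PP cells (3.91%, 66.1%, 37.5% and 43.5% unthinned). Slc30a8, the zinc transporter of secretory granules, had a delta median of 7.40 CPM, against 718 in alpha, 550 in beta and 61.2 in PP cells. Cadps, which primes granules for release, had 2.17 CPM, against 64.4, 59.8 and 42.

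Skap1, an adaptor known from T cells, was counted 5 times in delta cells against 1412, 6461 and 186 times in alpha, beta and PP cells, and Kctd12b 7 times against 1787, 3634 and 258. Ociad2, Nell1, Ugt2b34 and Adh1 were also among the 10, with 30, 9, 25 and 15 UMIs in all delta cells. For the named genes of the 4 type contrasts, 91 gene and contrast pairs gave 2728 values under the alternatives, of which 36 were not called and 0 had the opposite sign. None lost its call when a library was left out.

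Receptors and their partners were a list of 34 genes, of which 23 were tested, 6 were called higher and 4 lower against the mean of the others (4 and 4 by DESeq2). Ghsr, the ghrelin receptor, had 5.16 to 40.1 CPM in delta sums (median 15.9) and 92 UMIs, against 1, 3 and 2 UMIs in alpha, beta and PP cells. It was found in 16.8% of thinned delta cells and in 0.214%, 0.112% and 0% of alpha, beta and PP cells (23.4%, 0.203%, 0.330% and 1.3% unthinned). Crhr2, a receptor for urocortins, had 0 to 33.4 CPM (median 8.39; 72 UMIs against 2, 45 and 1). Both receptors were rare in counts, and for each the delta UMIs outnumbered those of the other 3 types together.

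Ramp1, which pairs with the calcitonin receptor-like receptor to bind CGRP, had a median of 144 CPM in delta cells, against 34.8 in alpha, 35.5 in beta and 18.9 in PP cells, a log2 difference of 2.06 ± 0.24. Ffar4, a receptor for long-chain fatty acids, had 117 CPM, against 73.7, 28.8 and 76.2, a difference of 1.36 ± 0.25. Adra2a, the alpha-2A adrenergic receptor, was 1.39 ± 0.49 above the mean of the others but at -1.98 against beta cells alone, and Sstr1 rested on 10 delta UMIs. Neither of those was called by DESeq2.

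Lower were Gpr119, the GABA-B subunit Gabbr2 (2 delta UMIs), the glutamate receptor subunit Gria3 at a median of 18.7 CPM in delta cells against 75.3 in alpha, 26.6 in beta and 57.3 in PP cells (-1.93 ± 0.34), and the incretin receptor Gipr at 0 CPM against 3.90, 12.1 and 4.76 (-1.74 ± 0.58). Gipr had 13 UMIs in delta cells. Sstr3, the somatostatin receptor of primary cilia, was not called at 69.6 CPM against 51.1, 73.4 and 62.1 (-0.04). The insulin receptor Insr (0.16) was not called either. Glp1r, the GLP-1 receptor, had 8 UMIs in delta cells, against 0 in alpha, 349 in beta and 0 in PP cells, and was not called against the mean.

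Of 35 tested ion channel and glucose-sensing genes, 9 were called higher and 3 lower. Cacna1h, a T-type calcium channel, had 0 to 56.0 CPM (median 18.0) and 90 UMIs in delta cells, against 2, 40 and 3 UMIs in alpha, beta and PP cells, and was found in 16.8% of thinned delta cells against 0%, 0.671% and 0.709% (23.4%, 0.407%, 1.43% and 0.649% unthinned). Kcnc2, a fast voltage-gated potassium channel, had 18.1 to 107 CPM (median 52.3; 192 UMIs against 4, 113 and 30). The sodium channel subunit Scn3b had a median of 45.5 CPM, against 2.22, 4.73 and 7.86, a difference of 2.52 ± 0.44. Abcc8, the sulfonylurea receptor of the KATP channel, was 0.44 ± 0.10 above the mean, at 793 CPM against 484 in alpha, 534 in beta and 458 in PP cells.

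Also called higher were Cacna1a (1.2 ± 0.31), Itpr1 (1.19), Cacnb2 (0.96), Scn9a (0.92) and Scn3a (0.92). The glucose transporter Slc2a2 (-1.67 ± 0.50) and the islet glucose-6-phosphatase G6pc2 (-2.31 ± 0.32) were among the lower. Against beta cells alone Slc2a2 was at -5.06, and G6pc2 had a delta median of 34.6 CPM against 1644 in beta cells. The KATP pore Kcnj11 was not called.

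Of 35 tested endocrine transcription factors, 9 were called higher and 10 lower by edgeR, and 13 higher and 7 lower by DESeq2, so the balance of the list depended on the method. After Hhex, the largest positive difference was that of Sox9, a factor of ductal and progenitor cells, at a median of 23.2 CPM in delta cells against 1.13 in alpha, 2.88 in beta and 2.21 in PP cells (2.13 ± 0.55). Insm1 (1.46 ± 0.22) had 125 CPM against 36.9, 93.0 and 14.1. Rfx6 (1.06 ± 0.19) had 158 CPM against 80.7, 80.5 and 24.9. Both act in endocrine differentiation. Pdx1, which beta and delta cells share, had 56.4 CPM in delta cells, against 6.38 in alpha, 135 in beta and 19.9 in PP cells. Its log2 difference was 1.05 ± 0.25 from the mean and -1.28 ± 0.29 from beta cells. Pdx1 was found in 47.7% of thinned delta cells, 8.97% of alpha, 86.7% of beta and 24.8% of PP cells (53.1%, 16.9%, 93.4% and 31.2% unthinned).

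Several factors of other islet lineages were lower. Pou3f4 was counted 3 times in delta cells, against 644 times in alpha, 170 in beta and 52 in PP cells. The alpha-cell factors Irx2 (-3.31) and Irx1 (-3.03, not called by DESeq2) were lower as well. Nkx6-1, a factor of beta cells, had 6.03 CPM in delta cells, against 8.53 in alpha, 154 in beta and 31.8 in PP cells (-1.80). The general endocrine factors Nkx2-2 (-0.95) and Neurod1 (-0.63) were lower too, while Isl1 (0.50), Pax6 (0.38), Meis2 (0.81) and Tshz1 (0.85) were higher. Mafa, a factor of adult beta cells, had 0 UMIs in all 4 types in this table.

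**Figure D3:**
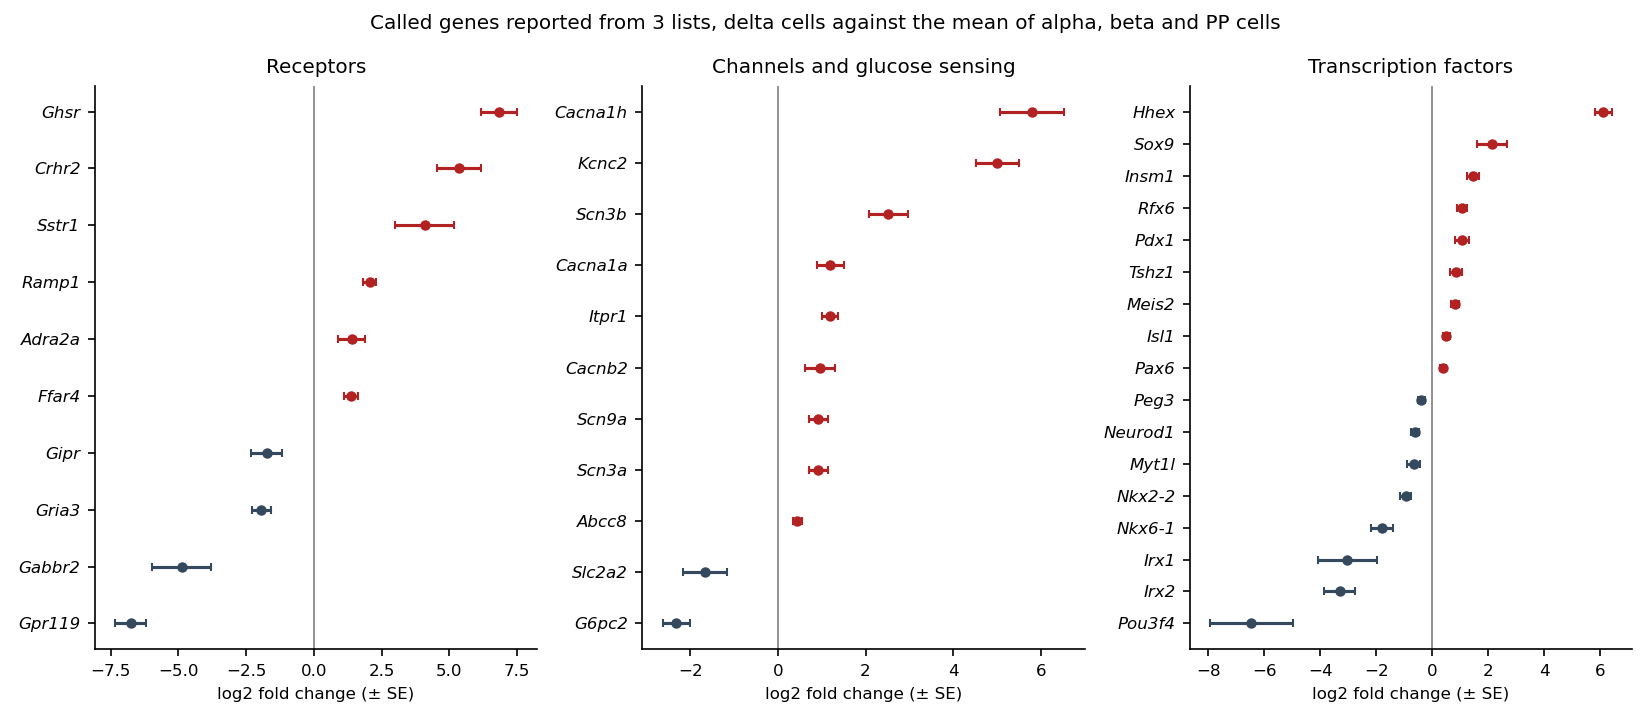
Log2 difference ± SE of delta cells from the mean of alpha, beta and PP cells for the receptors, channels and transcription factors called at an adjusted p under 0.05 and reported here. Points to the right of 0 are higher in delta cells; Hhex, Ghsr and Cacna1h lie farthest right, and Gpr119 and Pou3f4 farthest left.

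Granins and prohormone processing enzymes were mostly lower, with 3 of 22 called higher and 12 lower (list median -0.49, against -0.11 over all genes). Chga, a granule matrix protein, had 3071 CPM in delta cells, against 7197 in alpha, 13167 in beta and 4096 in PP cells (-1.30 ± 0.11). Its relative Chgb went the other way, at 4092 CPM against 1063, 3982 and 2312 (0.79 ± 0.13). The prohormone convertase Pcsk1 lay between alpha and beta cells, at 56.8 CPM against 1.55 in alpha, 341 in beta and 21.2 in PP cells. It was 0.91 ± 0.24 above the mean and at -2.76 against beta cells.

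Vgf (-2.64), the thiol oxidase Ero1lb (-2.82), Scg5 (-1.08), Cpe (-0.88) and Pcsk2 (-0.50) were among the lower genes. Of the 21 vesicle release genes, 3 were called higher and 5 lower by edgeR, and 7 higher and 4 lower by DESeq2, so here too the balance depended on the method. Syt1, the fast calcium sensor of synaptic release, had 37.5 to 297 CPM in delta cells (median 102), against medians of 4.21 in alpha, 1.33 in beta and 1.10 in PP cells (4.75 ± 0.38). Snap25 (-0.86), Syt4 (-0.80) and Syt7 (-0.62) were lower, as was Sytl4, which DESeq2 did not call.

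Among 20 tested peptide genes outside the rule, 3 were called higher and 4 lower. Iapp had a median of 27035 CPM in delta cells, against 2772 in alpha, 52383 in beta and 4044 in PP cells (1.66 ± 0.21 against the mean, -1.08 against beta cells). Pyy had 39913 CPM, against 15459 in alpha, 2146 in beta and 82867 in PP cells (1.27 ± 0.21 against the mean, -1.28 against PP cells). Delta cells were thus second to beta cells for one and second to PP cells for the other. Transthyretin (Ttr), abundant in alpha cells, had 198 to 1168 CPM in delta cells (median 405), against medians of 29455 in alpha, 3382 in beta and 3881 in PP cells. Ins1 had 1188 CPM against 3801, 64242 and 4030. Since Ins2 was in the rule and Ins1 is its sister gene, that value describes the choice of cells.

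Genes that mark the other islet types were read in the comparison with that type. Against alpha cells (13.6% of genes called, 5.93% higher and 7.65% lower), 0 of 19 tested alpha-cell genes were higher and 16 lower. Among them, Irx2 was at a log2 value of -6.21 and Ttr at -6.24 ± 0.24. Against beta cells (16.7% called, 5.18% higher and 11.6% lower), 0 of 21 beta-cell genes were higher and 19 lower, among them the urocortin gene Ucn3 at -5.96 ± 0.50 and the protease Bace2 at -6.63 ± 0.39, which had 3.78 CPM in delta cells against 524 in beta cells. Against PP cells (10.4% called, 5.19% higher and 5.21% lower), 2 of 11 PP-cell genes were higher and 6 lower (2 and 4 by DESeq2). The protease gene Pappa2, at 17 CPM in delta cells against 295 in PP cells (-3.85), was among the lower. Against the mean of the other types, 0 alpha-cell genes were higher and 14 lower (0 and 13 by DESeq2). Of the beta-cell genes, 2 (Iapp and Ppp1r1a) were higher and 14 lower (2 and 9 by DESeq2). Of the PP-cell genes, 5 were higher, led by Fxyd2 (4.41 ± 0.71) and Slitrk6 (2.16 ± 0.34), and 2 lower, Cd9 among them (5 and 2 by DESeq2).

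The positive differences from single types had their own leaders. Against alpha cells they included the imprinted gene Nnat, at 276 UMIs in delta cells against 3 in alpha cells, and Sez6l, at 324 CPM against 1.68. Against beta cells they included the neuronal membrane protein Gpm6a, at 76.1 CPM against 0, and the epithelial factor Ehf, at 301 CPM against 2.98. Against PP cells, Syndig1l had 44.8 CPM against 0.

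A list of 25 tested immature and imprinted genes had 9 called higher and 3 lower against the mean. Cd24a, a surface glycoprotein of immature cells, had 651 to 1283 CPM in delta sums (median 885), against medians of 16.5 in alpha, 19.1 in beta and 7.86 in PP cells (5.45 ± 0.22). In the postnatal delta cells it had 1608 CPM at P3, 1870 and 1468 at P12 and 1097 at P21, against 658 and 882 CPM in Control replicates 1 and 2, with too few cells for a call. Nnat (5.19), Plagl1 (2.00), Gnas (1.46) and Meg3 (0.45) were also higher, and Grb10 (-1.44) and Peg3 (-0.39, not called by DESeq2) were among the lower.

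The unfolded protein response list had 0 of 30 genes higher and 16 lower, with a median of -0.60. Hspa5, the main chaperone of the endoplasmic reticulum, had 812 CPM in delta cells, against 794 in alpha, 1838 in beta and 1004 in PP cells. The count was highest against beta cells alone, where 23 genes were lower (median -1.41). Against alpha cells 2 were higher and 5 lower by edgeR, but 8 higher and 4 lower by DESeq2, so no direction is given there. Against PP cells 0 were higher and 5 lower (1 and 5 by DESeq2). Atf4 (-1.14), Manf (-1.01) and Pdia6 (-1.05) were among the genes lower than the mean.

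The other stress lists are given by their counts alone. Of 28 oxidative stress genes, 3 were higher, led by catalase (Cat, 19.7 CPM against 0.565, 3.83 and 0) and Gpx1 (315 CPM against 110, 149 and 132), and 5 lower (3 and 3 by DESeq2), among them the metallothionein Mt2 (58.1 CPM against 131, 273 and 504). The interferon and antigen list had 4 of 25 higher (7 by DESeq2), including Bst2 (1.58 ± 0.39) and Ifit3 (3.31). The p53 list had 0 of 28 higher and 7 lower (1 and 5 by DESeq2), and the division list 0 of 34 higher and 4 lower (1 and 2 by DESeq2). The immediate early list had 1 of 27 higher (Hspb1, 2.91) and 5 lower (1 and 4 by DESeq2). In the glycolysis list 2 of 21 were higher (Ldha and Pfkp) and 1 lower (Pdk1), with 5 and 1 by DESeq2. Over all genes tested, edgeR called 6.08% higher and 7.77% lower.

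Transcripts of other pancreatic cells were present in all 4 types. The summed acinar genes made up 23669 to 60417 CPM in delta sums (median 39917), against medians of 24279 in alpha, 28873 in beta and 34184 in PP cells, and 1 of 25 acinar genes was called higher (9 by DESeq2). Of 15 ductal genes, 4 were higher, namely Sox9, Epcam, Cldn7 and Clu (1113 CPM against 110 in alpha, 223 in beta and 629 in PP cells), and Krt7 was lower. Of 17 immune genes, 5 were higher and 0 lower: the class II antigen genes H2-Ab1, H2-Aa and H2-Eb1, their chaperone Cd74, and lysozyme Lyz2. The median delta level of Cd74 and of Lyz2 was 0 CPM, and DESeq2 called 0 of the 5. The class II and Cd74 transcripts sat in few cells, since 6 of 128 delta cells in 2 libraries had 20 or more such UMIs, the highest with 919 at STZ_D12 replicate 1, against 1 alpha, 1 beta and 3 PP cells. Their part in the differences above was not tested. Of 10 tested endothelial, stromal and blood genes, 0 were higher and the 4 hemoglobin genes were lower (1 gene by DESeq2).

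Within libraries, the genes with the highest variance over mean between delta cells were mostly of 2 kinds. Over 107 cells thinned to 20000 UMIs, 1361 genes were ranked by their variance over their mean within libraries. The hormones Sst, Ppy, Pyy, Ins2 and Iapp stood among the highest 19, as did transcripts of blood (Hba-a1, Hba-a2, Hbb-bs), of acinar cells (Ctrb1, Prss2, Try5) and of immune cells (H2-Ab1, Lyz2, H2-Eb1, H2-Aa, Cd74). Apoe and Spp1 were the rest, beside Yam1. This measure tends to rise with a gene's level, so the rank of the abundant hormones does not show that they varied most relative to their level. The rule also bears on the range of Sst, Ppy, Ins2 and Prss2. A single delta cell of STZ_M2_NoIns replicate 1 held 2436 of the 2487 hemoglobin UMIs, and 1 of STZ_D42 held 436 Apoe UMIs.

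The delta share of the cells of the 4 types was 5.38% at STZ_D6, 35.1% and 8.54% at STZ_D12, 11.5% at STZ_D30, 21.3% at STZ_D42, 15.0% at STZ_M2, 6.80% at STZ_M5 and 13.0% at STZ_M9. In Control replicates 1 and 2 it was 0.826% (2 of 242 cells) and 4.07% (7 of 172), and in replicate 3 it was 0 of 22, which allows a share of up to 13.6%. All STZ values lay above the control values measured, although that limit reaches into their range. The means were 14.6% ± 9.72 (SD, n = 8) with STZ and 1.63% ± 2.15 in controls (SD, n = 3), a difference of 12.9 percentage points (exact two-sided permutation p = 0.0545, smallest possible over both directions 0.00606). The measured control shares were the lowest of all, so no other arrangement put the STZ mean as far above. Arrangements at least as far apart in the opposite direction are counted too, so with these shares a higher STZ mean could not give a lower p. Adjusted over the 3 share comparisons made, p was 0.164. Without STZ_D12 replicate 1 the difference was 9.997 points (exact permutation p = 0.025), and without STZ_D6 or STZ_M5 it was 14.2 or 14.0 points (exact permutation p = 0.0417 for each). Without any other 1 of the STZ libraries the exact permutation p was 0.05 to 0.0667, and without any 1 control it was 0.111. These values were not adjusted, and whether they fell under 0.05 depended on which library was left out. In each of these comparisons the control shares were still the lowest. The p thus moved with the number of arrangements and with those in the opposite direction, not with overlap of the measured shares.

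Beta cells are the target of STZ and make up the denominator in part. Among alpha, delta and PP cells alone, the delta share was 18.8% ± 10.2 with STZ (7.35% to 40.6%, SD, n = 8) and 7.45% ± 8.23 in controls (6.06%, 16.3% and 0 of 1 cell, SD, n = 3). This difference of 11.4 points missed the threshold as well (exact permutation p = 0.127, adjusted 0.191), and the groups overlapped. Fewer cells of the other types and more delta cells cannot be told apart from shares, and cells were sorted and picked, so shares do not give islet composition. In the 1 sequencing run that held both arms by the raw-file names, the share of the 4 types was 7.14% (3 of 42) at STZ_D6, 8.33% (2 of 24) at STZ_D30 and 15.0% (9 of 60) at STZ_M2, against 4.07% in Control replicate 2. Among alpha, delta and PP cells, these were 10.3%, 10.5% and 16.7%, against 16.3%.

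Without implants the share of the 4 types was 7.55% and 3.45%. In pups it was 2.94% at P3, 4.29% and 1.41% at P12 and 3.91% at P21, a mean of 3.14% ± 1.28 (SD, n = 4) and 1.5 points above the controls (exact permutation p = 0.257, adjusted 0.257, smallest possible 0.0286). Among alpha, delta and PP cells, the postnatal share was 33.3% at P3 (4 of 12 cells) and 8.97% at P21 (7 of 78). At P12 it was 37.5% (3 of 8) and 16.7% (1 of 6). Exact binomial intervals were 9.92% to 65.1% at P3, 8.52% to 75.5% and 0.421% to 64.1% at P12, and 3.68% to 17.6% at P21. These intervals overlap, so the shares are not ranked by age.

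**Figure D4:**
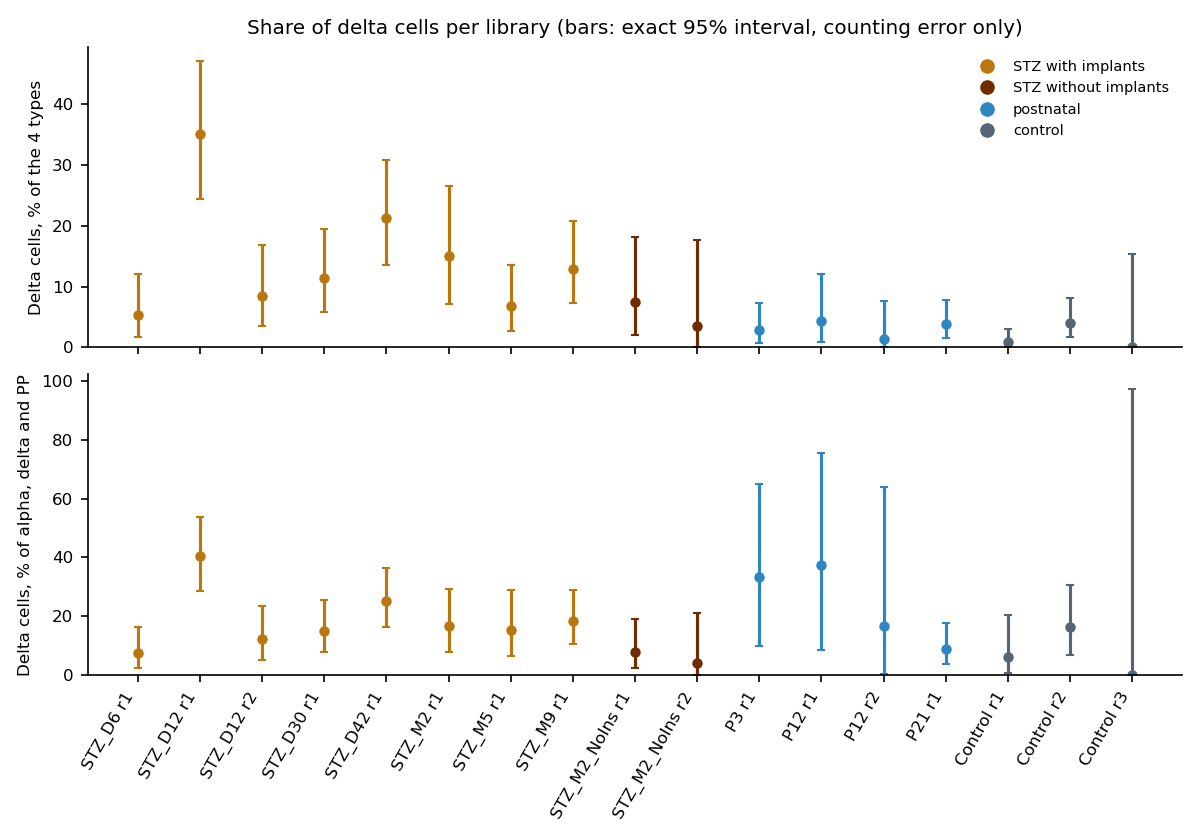
Delta cells as a percentage of the 4 types (upper panel) and of alpha, delta and PP cells (lower panel) in each library, with exact 95% binomial intervals that cover counting error only. STZ libraries with implants run from 5.38% to 35.1% of the 4 types, above the control values, and the groups overlap when beta cells are left out.

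Delta cells of STZ mice with implants were compared with control delta cells by 8 sums against 1. The only control sum of at least 5 cells was that of replicate 2, with 7 cells, which the fit assumes to vary like the others. Of 7454 genes, 1 was called (0.0134%; 525 at an unadjusted p under 0.05), and DESeq2 called 1. It was RP23-8J15.7 (Gm28439), an unprocessed pseudogene on chromosome 1 (24611535 to 24612410, GRCm38) whose 876 bases all equal those of the mitochondrial gene mt-Nd4. It had 509 to 1563 CPM in the STZ sums (median 736), against 3482 CPM in Control replicate 2 (-2.09 ± 0.33, adjusted p = 0.003). The 2 delta cells of Control replicate 1 had 391 CPM, below every STZ sum, and alpha cells had 693 and 1724 CPM in controls. The call was lost once the labels' batch number entered the fit (0 genes called), with single cells admitted to the sums, and with Sst at 1.5 times the other hormones. Without STZ_D12 replicate 1 or STZ_M5, 2 genes were called.

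The delta genes described above thus gave no call after STZ, which with 1 control library shows little about their stability. Rbp4 had 3548 to 8218 CPM in the STZ sums (median 6569), against 5164 in Control replicate 2. Hhex had 325 to 560 CPM, against 346 CPM. Cd24a had 651 to 1283 CPM, against 882 CPM. In each case the control value lay inside the STZ range. Cdkn1a, an arrest gene of the p53 response, had 10.4 to 159 CPM with STZ, against 41.2 and 0 CPM in Control replicates 2 and 1. Ins1 had 75.6 to 7124 CPM with STZ, against 5691 and 8915 CPM in the controls.

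Postnatal and adult delta cells could be compared only with sums of at least 3 cells (P3, P12 replicate 1 and P21 against Control replicate 2). Of 6134 genes, 1 was called (0.0163%; 140 at an unadjusted p under 0.05), and DESeq2 called 0. This was pancreatic lipase (Pnlip), an acinar gene, at 63.5 CPM at P3, 0 at P12 and 452 at P21, against 2728 CPM in Control replicate 2 (-4.08 ± 0.77, adjusted p = 0.0107). It was low in pups in other types too, at 0 to 180 CPM in postnatal alpha cells against 386 and 1706 CPM in control alpha cells, and Control replicate 1 had 338 CPM in delta cells. The summed acinar genes ran with it, at 1840 to 26064 CPM in postnatal delta cells (median 6132), against 42808 and 7153 CPM in Control replicates 2 and 1. Whether Pnlip was made by delta cells was not tested. Leaving out P12 replicate 1, P3 or P21 gave 7, 11 and 24 calls.

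Delta cells without implants were represented by the 4 cells of STZ_M2_NoIns replicate 1. Against STZ with implants, 5 of 8251 genes were called higher and 5 lower (0.121% in all, 0.0606% each way), and DESeq2 called 16, with none of the 4 hemoglobin genes among them. Of the higher, 4 were hemoglobin genes, the near-identical alpha-globin pair Hba-a1 and Hba-a2 and the near-identical beta-globin pair Hbb-bs and Hbb-bt, carried by the 1 cell named above. The other was the cadherin Pcdh15, at 309 CPM against 21.3 to 56.6, and 3 of the lower were the acinar genes Cpb1 (-3.83), Cel (-3.70) and Pla2g1b (-4.51). The acinar sum there was 5883 CPM, against a median of 39917 CPM with implants, and 34362 CPM in the single cell of STZ_M2_NoIns replicate 2. Fam46a and Nfat5 were at 0, against 116 to 435 and 54.4 to 159 CPM, but Fam46a had 363 CPM in that single cell. Leaving out STZ_D6 or STZ_M2 left 5 calls, leaving P21 or P12 replicate 1 out of the shared estimate of the spread gave 34 and 36, and Pcdh15 lost its call without any 1 of the 8 STZ libraries. Against controls, 4 genes were called (0.0485%; 2 with the batch block): 3 hemoglobin genes, which were higher (0.0364%), and Fam46a, which was lower (0.0121%). Leaving out STZ_M5 or STZ_M9 gave 8 calls each, STZ_D12 replicate 1 gave 11, P3 15, P21 26 and P12 replicate 1 29.

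Delta and beta cells of the same libraries were then set against each other for the STZ effect, as the change in delta minus the change in beta cells. Of 11488 genes, 13 differed (0.113%), 1 in the positive (0.0087%) and 12 in the negative direction (0.104%), but 2 of these are genes of the rule, which the choice of cells bears on. Of the 11483 other genes, 11 differed, 1 in the positive and 10 in the negative direction. For Gpx3, Rbp4, Chgb, Calb1, Pyy and Sorcs2 the control delta value lay inside the range of the STZ delta sums, while beta levels ran higher with STZ, with overlap for Pyy. Gpx3, a secreted glutathione peroxidase, had 1109 to 3524 CPM in STZ delta cells (median 1835) against 2217 CPM in Control replicate 2, while beta cells had 678 to 2860 CPM with STZ (median 2109) against 241 to 281 CPM in the 3 controls (-3.22 ± 0.41, adjusted p = 9.26e-09). Rbp4 had 392 to 1305 CPM in STZ beta cells (median 557) against 48.1 to 92.0 CPM in control beta cells, with the delta values given above (-2.53 ± 0.41, adjusted p = 1.80e-05).

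Chgb had 3394 to 5259 CPM in STZ delta cells against 4616 CPM in the control, and 2769 to 7396 CPM in STZ beta cells against 1474 to 2241 CPM in control beta cells (-1.75 ± 0.38, adjusted p = 0.0086). The beta groups did not overlap for these 3 genes. Calb1, the calcium buffer calbindin, had 99.1 to 388 CPM in STZ delta cells against 210 CPM, and 26.2 to 244 CPM in STZ beta cells against 6.48 to 24.0 CPM (-3.48 ± 0.74, adjusted p = 0.0083). Pyy had 29853 to 51259 CPM in STZ delta cells against 40998.5 CPM, and 1064 to 7539 CPM in STZ beta cells against 454 to 2206 CPM, where the beta groups overlapped (-2.17 ± 0.44, adjusted p = 0.00372). Sorcs2, a sorting receptor, had 6.68 to 106 CPM in STZ delta cells against 45.3 CPM, and 34.6 to 96.8 CPM in STZ beta cells against 0 to 2.01 CPM.

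Cd200 (-2.48), the vitamin D binding protein Gc (-2.63), Rcn3 and Tmie were the other negative differences. Cd200, Gc and Calb1 lost their calls with single cells admitted to the sums, Pyy and Sorcs2 with DESeq2, and Rcn3 and Tmie under both. Rcn3 lost it also without STZ_D12 replicate 1. The positive one, Snx2, rested on 1 UMI in the control delta cells (80.2 to 147 CPM with STZ against 4.12 CPM) and was not called by DESeq2. In these fits too the control arm was 1 library.

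**Figure D5:**
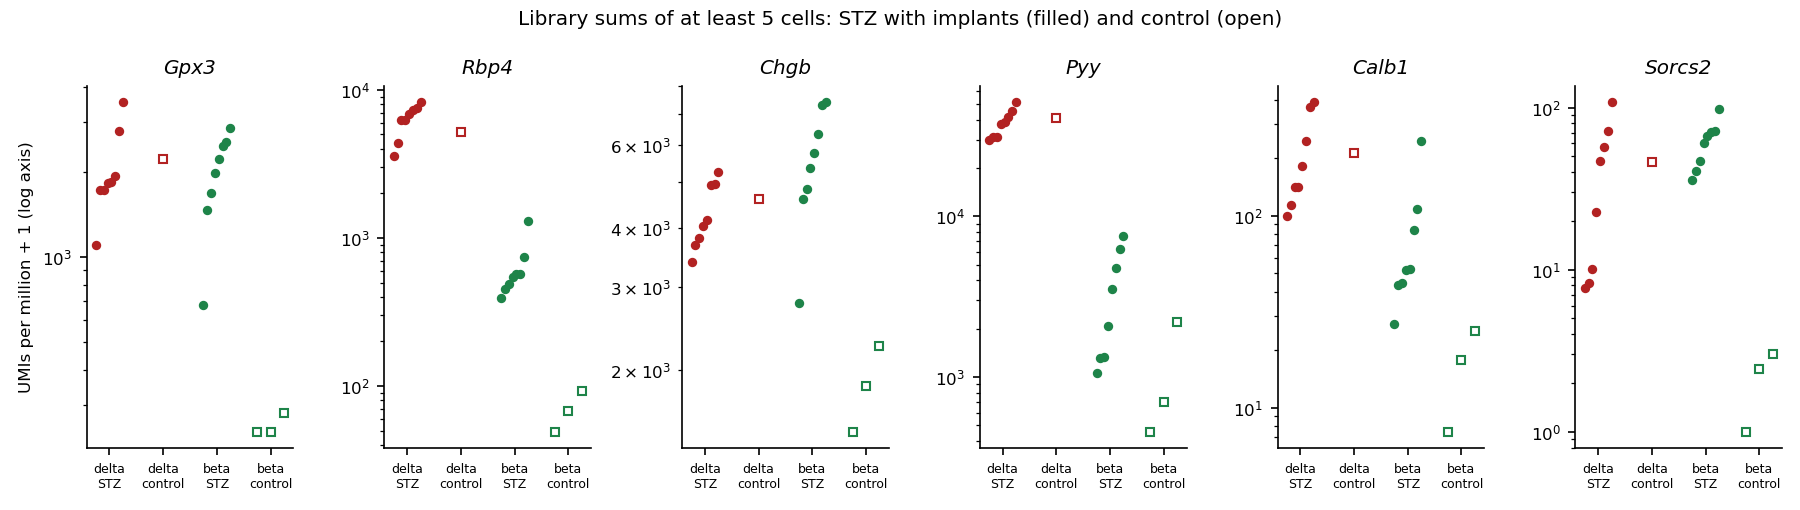
Gpx3, Rbp4, Chgb, Pyy, Calb1 and Sorcs2 in delta and beta sums of at least 5 cells, STZ libraries filled and controls open, in CPM plus 1 on a log axis. The single control delta sum lies within the STZ delta range for each gene, while control beta sums lie below all STZ beta sums for each but Pyy.

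Against alpha cells the STZ effect in delta cells differed for 3 of 11889 genes (0.0252%), all negative. Apoe, the lipid carrier, had 3.89 to 748 CPM in STZ delta cells (median 128) against 111 CPM in Control replicate 2, and 2.31 to 230 CPM in STZ alpha cells against 2.37 and 13.7 CPM in control alpha cells (-4.05 ± 0.87, adjusted p = 0.0189). Spp1, osteopontin, had 33.0 to 1262 CPM in STZ delta cells against 346 CPM, and 54.1 to 631 CPM in STZ alpha cells against 33.1 and 62.4 CPM (-2.48 ± 0.53, adjusted p = 0.0189). The third was RP23-8J15.5 (Gm28438), of which 344 of 345 bases equal mt-Nd3 (-1.61 ± 0.37, adjusted p = 0.0409). DESeq2 called neither Apoe nor Spp1. No gene was called here without STZ_M9, and 1 was called without STZ_D6. Without STZ_M2 and without STZ_D12 replicate 1, 8 and 7 were called.

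For age, 3 of 12188 genes were called (0.0246%), of which 2 are genes of the rule and are not read. Of the 12183 other genes 1 differed between delta and beta cells. It was Pyy, at 46556 CPM at P3, 22689 at P12 and 47656.5 at P21 in delta cells against 40998.5 CPM in Control replicate 2, and 1740 to 11743 CPM in postnatal beta cells against 454 to 2206 CPM in control beta cells (-2.65 ± 0.48, adjusted p = 9.91e-05). Pyy lost this call without P3 or P12 replicate 1, with thinned cells and with DESeq2.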

How the data were processed

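Single RFP-positive cells were amplified by a modification of STRT-seq with 18 and then 4 PCR cycles, per the labels' protocols. The deposited UMI counts cover 40824 genes in 2999 cells (7751 to 645830 UMIs per cell), and cell names place every cell in 1 of 17 libraries. The submitters' processing notes name mm10 and list UMI-tools 0.5.0, SAMtools 1.3.1, featureCounts 1.5.3 and TopHat2 2.1.0, with no order or cell filter. In the authors' deposited normalized signal, each value was the gene's UMIs per 100000 of its cell, not counting the islet hormones and Yam1 in the denominator (8 genes in all), with 0 values off by more than 0.01. Types were taken from that signal, and levels and tests from the counts. By symbol, 0 mitochondrial genes were listed, and libraries shared 0 cell names. No cell was removed, and doublets were neither called nor removed.

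The members, gene lists, tests and alternatives were chosen with earlier results of these data known. UMIs were summed per library and type, so deeper cells weigh more, and tested with edgeR 4.0.16 in R 4.3.3 (TMM scaling, filterByExpr, quasi-likelihood F test without robust estimation). A gene was called when its Benjamini-Hochberg adjusted p was under 0.05. The SE restates that test, as the log2 difference over the square root of F. Type contrasts used 53 sums of at least 5 cells with the library as a block. Differences in effect between types also carried a library block, and group comparisons used 1 mean per arm. Sums of at least 5 cells gave no value for the postnatal comparisons and those without implants, so these use at least 3 cells, a choice made after seeing the data. Shares were compared by exact permutation (SciPy 1.17.1). DESeq2 1.42.0 was an alternative.

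In each contrast between types, named genes are list members and the 10 qualifying called genes with the largest difference in each direction. The latter qualified with at least 50 CPM in the higher arm and the same direction in every paired library. In comparisons between groups, and of effects between types, every called gene outside the rule was taken without these conditions. Against the mean of the other types, the delta mean also had to lie outside all 3. Sst, Ins2, Gcg, Ppy and Prss2 were left out. Some further genes count in the lists but are not reported here. Gene positions are those of GENCODE on GRCm38. The labels call the replicate number a batch, and differences between batches 1 and 2 correlated across groups at -0.03 to 0.38 in alpha cells and -0.04 to 0.24 in beta cells. On simulated counts the procedure recovered many of the large changes between types, but few or none of those in comparisons with 1 control sum. Intervals and limits at a count of 0 (3 counts) cover counting error only.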

Additional observations from a re-analysis of the deposited data

Results flagged for a closer look

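In 8 of 37 sets of STZ or postnatal libraries examined, 1 library lay far from the others, where chance gives about 1 in 20 for continuous values. Several of these genes had few UMIs, so their UMIs are given too. In delta cells Ppp1r17 had 327 CPM at STZ_D6 (49 UMIs; next highest 161 CPM). The same STZ_D6 library, with 5 delta cells and the smallest sum, was highest for Kctd12b (6.68 CPM, which is 1 UMI, next 1.54 CPM, also 1 UMI), Nell1 (20.04 CPM from 3 UMIs, next 4.31 CPM from 1) and Slc30a8 (46.8 CPM from 7 UMIs, next 18.3 CPM from 5). STZ_M2 was highest for Gpr119 (4.72 CPM, next 1.3 CPM, each 1 UMI) and Ugt2b34 (33.0 CPM from 7 UMIs, next 11 CPM from 3). STZ_D12 replicate 2 was highest for Cadps (12.9 CPM from 3 UMIs, next 3.67 CPM from 1). For Kctd12b and Gpr119 the highest and the next library thus had the same count and differed only in depth. STZ_D30 was highest for the summed ductal genes (6041 CPM, next 3492).

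The log2 change with STZ in delta cells minus that in alpha cells was -4.05 for Apoe, -2.48 for Spp1 and -1.61 for RP23-8J15.5, by the test of the difference itself. Minus that in beta cells, it was -3.22 for Gpx3, -2.53 for Rbp4, -2.17 for Pyy, -1.75 for Chgb, -3.48 for Calb1, -2.48 for Cd200, -2.63 for Gc and 5.03 for Snx2. For Sorcs2 (-9.92), Tmie (-6.16) and Rcn3 (-5.11), control beta sums were near 0, so the size depends on the small count added in the fit. The postnatal change of Pyy in delta minus that in beta cells was -2.65.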

How the results depend on the processing

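Calls against the mean of the other types, alpha, beta and PP cells moved most with the cells and libraries used. In this section, a ratio or minimum given for Sst was applied to each type's own hormone, so alpha, beta and PP cells changed with it. In control libraries alone 171, 237, 305 and 115 genes were called, in postnatal libraries alone 613, 465, 544 and 503, and with Sst at 10 times the other hormones 682, 877, 910 and 555. Sums of at least 10 cells gave 1070, 1429 and 832 against the mean, beta and PP cells. Leaving out a library gave 1606 to 1955, 1623 to 1882, 1913 to 2255 and 1138 to 1432.

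The comparisons between groups rest on few calls. STZ against control (1 call) gave 0 with sums of 1 cell, 0 with Sst at 1.5 times the other hormones, 2 with Sst of at least 6000 and 13 with no low-count filter. Postnatal against control (1) gave 4 without the 8 hormone genes, 0 with DESeq2, 0 with sums of 1 cell, 6 with thinned cells, 0 at 1.5 times, 2 at 6000 and 9 with no filter. No implants against STZ with implants (10) gave 16 with DESeq2, 4 with sums of 1 cell, 16 thinned, 6 at 1.5 times, 19 at 6000 and 59 with no filter. No implants against control (4) gave 10 without hormone genes, 2 with DESeq2, 10 thinned, 17 at 6000 and 45 with no filter. The STZ effect in delta minus alpha cells (3) gave 10 without hormone genes, 1 with DESeq2, 0 with sums of 1 cell, 0 thinned, 0 at 1.5 times and 5 with no filter. Minus beta cells (13) it gave 23 at 1.5 times and 20 at 6000, and the postnatal effect (3) gave 1 without hormone genes, 0 with DESeq2, 1 thinned and 1 at 6000. Nfat5 turned to 0.015 at 1.5 times. The settings of 1.5 times and of 1 cell were chosen after seeing the data. The causes were not tested. In the order above, leaving out a library gave 1 to 2, 7 to 24, 5 to 36, 3 to 29, 0 to 8, 14 to 18 and 0 to 4 calls. Control replicate 2 could be left out only of no implants against STZ with implants. STZ_M2_NoIns replicate 1 could not be left out of either comparison without implants.

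With the batch number as a replicate block, STZ against control gave 0 calls and no implants against control 2, and no other call count moved by over 1.5 times. The share p became 0.0625, the smallest possible. Without the library block, type contrasts gave 1435, 1439, 1806 and 1162 calls.

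The share difference of 12.9 points had an unadjusted p under 0.05 with each type's hormone at 10 times the other 3 (7.08, exact permutation p = 0.0485). The same held at 6000 (13.3, exact permutation p = 0.0424) and at 1.5 times (16.997, exact permutation p = 0.0303). These values were not adjusted over the 3 share comparisons, while the adjusted permutation p of the main setting was 0.164. At 10 times, delta cells were 0 of 207, 1 of 145 and 0 of 17 cells of the 4 types in Control replicates 1, 2 and 3. When a library was left out, the difference ranged from 9.997 (without STZ_D12 replicate 1) to 14.2 (unadjusted exact permutation p 0.025 to 0.111). Among alpha, delta and PP cells the range was 7.67 to 15.8, and for pups 0.688 to 2.72. Sums of at least 10 cells, and Sst at 10 times the others, left no fit for the group comparisons. No fit within a single sequencing run was made.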
